A study of Homo sapiens with 12 samples.

Results

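Integrins are cell surface receptors, each built of an alpha and a beta chain, that attach a cell to the matrix outside it and to the actin or keratin filaments inside it. Laminins are the large secreted proteins of the basement membrane, each an assembly of an alpha, a beta and a gamma chain, and many integrins of epithelial cells bind them. In stratified epithelium such as the oral lining, basal cells are held to a laminin that contains the LAMA3 and LAMB3 chains by hemidesmosomes, whose integrin pairs ITGA6 with ITGB4. The rows of the deposited count table with the symbols of 31 such genes were taken, out of 19225 genes in all. They are 20 integrin genes, of which 12 code for alpha and 8 for beta chains, and 11 laminin genes.

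RNA was sequenced from HN6 and HN30, both established cell lines of oral squamous cell carcinoma, 24 h after transfection with an siRNA. The control cells (NC) received a scrambled siRNA, and the knockdown cells received siFAT1-1 or siFAT1-2, which target the atypical cadherin FAT1; the sample titles write these as FAT1-sh1 and FAT1-sh2. Each of the 6 conditions was made at 2 separate times, giving 12 libraries of poly(A) RNA, and every library carries transfection reagent and an siRNA, the controls included. The cells were a culture of 1 line each, so fewer cells of a kind and less RNA per cell cannot be told apart.

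The libraries held 26430049 to 47639010 counts, with a median of 32561793. FAT1 itself was left at 17.1% of the NC mean with siFAT1-1 and 28% with siFAT1-2 in HN6, and at 39.1% and 65.4% in HN30. In each line 6 of 7 epithelial markers were at 1 CPM or more (counts scaled to library size, with TMM-scaled library sizes) in every library. The 7 summed to 7791 to 13595 CPM in HN6 and 4017 to 8835 CPM in HN30. Leukocyte markers summed to at most 123 CPM, fibroblast markers to at most 163 CPM and endothelial markers to at most 7.86 CPM. In each line 2 of 6 leukocyte markers and 0 of 4 endothelial markers were at 1 CPM or more in every library. Of 5 fibroblast markers 3 were so in HN6 and 1 in HN30. NC repeat 2 of HN6 stood apart from the other libraries. Its correlation with NC repeat 1 over all genes tested was 0.947, the lowest of the 6 pairs of repeats, whose highest was 0.99. Between these repeats 12 of 28 tested integrin and laminin genes differed by more than 1 on the log2 scale, against 23.7% of all genes tested. ITGAV, ITGA2, ITGA1 and ITGB6 lay lower in repeat 2 by the most, with log2 differences of -3.27, -3.16, -2.84 and -2.67. Their transcripts have GC contents of 38.3% to 40.2%, and genes of low GC content lay lower in that library as a whole (plot of level by GC content).

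The siRNA sites are shown because the results below differ between siFAT1-1 and siFAT1-2. Both lie in coding exons of FAT1 on the minus strand of chromosome 4 (hg38), siFAT1-1 in exon 10 at chr4:186618791-186618809 and siFAT1-2 in exon 23 at chr4:186598017-186598035. Capitals mark the 7 bases, 12 to 18 of the 19 bases of the target counted from its 5′ end, that pair with the seed of the antisense strand.
siFAT1-1 target: gcaccacaattTCGAGCAa
siFAT1-2 target: gcacgtgtgttGTCGACAa
The letters TCGAGCA and GTCGACA were searched on the sense strand of the representative transcript of each of the 28 tested genes (GENCODE 44). No 3′ untranslated region of the 28 held either of them, against 1.38% and 0.768% of 14185 genes. Over whole transcripts 1 gene held each, against 8.25% and 3.9% of all genes. LAMA5 held the siFAT1-1 letters in coding exon 65 of 80, at chr20:62313130-62313156 on the minus strand. ITGAV held the siFAT1-2 letters in coding sequence that begins in exon 18 of 30 and crosses into the next exon, on the plus strand of chromosome 2 between 186659158 and 186663776. ITGB1 held neither.
LAMA5, siFAT1-1 letters in capitals: accaagcgctTCGAGCAggagctgcgg
ITGAV, siFAT1-2 letters in capitals: gctaacattaGTCGACAggctcacatt

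Of the 31 genes, 19 were detected in all 6 conditions, meaning at 1 CPM or more in both repeats, and 6 in none. A single condition had 21 to 24 of them. The filter on low counts left 28 for testing and removed ITGA8, at 0 counts in every library, ITGA11, at no more than 0.246 CPM, and LAMC3, at no more than 0.226 CPM. ITGA7, ITGA9 and LAMB4 passed the filter at no more than 1.42, 0.965 and 0.519 CPM.

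Of the laminin genes, those of the basal epithelial layer were measured at high levels. Per kb of merged exons in the NC libraries, LAMB3 had the highest level of the 31 in both lines, with mean CPM per kb of 846 in HN6 and 654 in HN30. LAMA3, its alpha partner, had 126 and 93.3, and LAMA5, the broadly made alpha chain of basement membranes, had 56.7 and 120. LAMC1, the gamma chain of most laminins, had 46.3 in HN6 and 56.3 in HN30. Within the measured beta chains LAMB3 made up 84.9% to 96.3% of the level per kb in every library, and LAMB1 and LAMB2 most of the rest. Within the measured alpha chains LAMA3 and LAMA5 together led in every library. The share of LAMA3 was 50.6% to 78.3% in HN6 and 24.8% to 54.9% in HN30. The share of LAMA5 was 21.6% to 49.1% in HN6 and 44.5% to 71.4% in HN30.

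Among the integrin genes, per kb of merged exons, ITGA5, the fibronectin receptor chain, and ITGA3, a laminin receptor chain, had mean CPM per kb of 238 and 207 in HN6 NC. ITGB4, the hemidesmosomal beta chain, had 157. The order of ITGA5 and ITGA3 was not the same in both repeats: ITGA5 made up 46.3% of the measured alpha chains in repeat 1 and 33.3% in repeat 2, and ITGA3 26.2% and 53.3%. In HN30 NC, ITGB4 led with 164, then ITGA3 with 159, ITGA6 with 115 and ITGA2, a collagen receptor chain, with 110. ITGB1, the beta chain shared by most alpha chains, had 57.3 in HN6 and 68.2 in HN30. Its place depends on which length is used, because its merged exons are far longer than its main transcript. Per kb of transcript ITGB1 had 223 in HN6 and 266 in HN30, above ITGB4 at 180 and 188. The lead of ITGB4 in HN30 also depends on the length. Per kb of transcript ITGA3 led the integrin genes there with 318, and in HN6 it had 415 beside 414 for ITGA5. The alpha chain ITGAV, the usual partner of ITGB3, ITGB5, ITGB6 and ITGB8, had 12.4 and 12.6 per kb of merged exons and 34 and 34.6 per kb of transcript. The HN6 value of ITGAV is the mean of repeats at 433 and 44.9 CPM.

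Levels of some integrin and laminin genes differed between HN6 and HN30. With edgeR's quasi-likelihood test and Benjamini-Hochberg adjustment over 14360 genes, 16 of 28 differed between the lines at an adjusted p under 0.05, 6 higher in HN6 and 10 higher in HN30, which is 57.1% of them against 56.6% of all genes. At thresholds taken from the study's methods, an unadjusted P below 0.05 with a log2 fold change beyond 1 in size, 11 differed, against 32.5% of all genes. The 6 libraries of a line lay wholly above those of the other for 7 genes, against 25.7% of all genes. These shares were near those of all genes tested. The counts include ITGA4 and LAMA4, which passed the filter on low counts only through the line where they were higher. The median log2 fold change of HN6 over HN30 was -0.38 for the 28 and 0.00 for all genes.

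**Figure D1:**
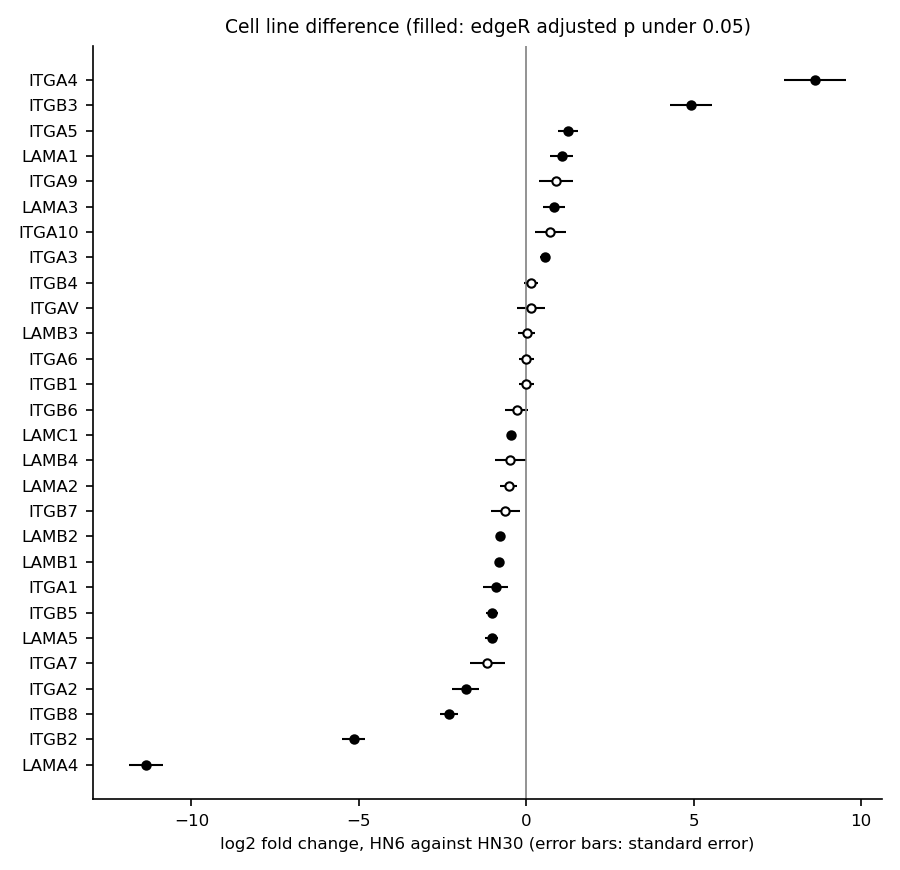
Log2 fold change of HN6 against HN30 (x axis) for the 28 tested integrin and laminin genes (y axis), with standard errors from edgeR over 12 libraries; filled points passed an adjusted p of 0.05. LAMA4 lies far to the HN30 side and ITGA4 and ITGB3 to the HN6 side. The fitted values of LAMA4 and ITGA4 depend on the prior count because the lower line is at or near 0.

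The largest differences were those of LAMA4, ITGA4, ITGB2, ITGB3 and ITGB8. All but ITGB8 were absent or near the detection limit of 1 CPM in the lower line. LAMA4, a laminin alpha chain known from vessels and muscle (6: 112107931 to 112254939, minus strand), had 14.6, 28.7 and 70.9 CPM as the lowest, median and highest value in HN30. In HN6 it had 2 counts in 1 library and 0 in the other 5. The ratio of the pooled levels was 3634, with a 95% counting interval of 1006 to 30005 that covers counting error only. The groups did not overlap, and edgeR's adjusted p was 7.38e-09. LAMA4 passed the filter on low counts only through HN30, so this test is no separate support for the difference.

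ITGB2, the beta chain of the leukocyte integrins (21: 44885953 to 44931989, minus strand), had 12.7, 53.3 and 98.2 CPM as the lowest, median and highest value in HN30 and 0.581, 1.37 and 2.57 CPM in HN6. Its log2 fold change was -5.16 ± 0.33 (standard error; edgeR adjusted p = 1.36e-07). The leukocyte markers of the same libraries summed to 24.4 to 36 CPM in HN30 and 71.3 to 123 CPM in HN6. Of the 2 leukocyte markers that could be tested, 1 was higher in HN6 and 1 in HN30. PTPRC was at 0 in every HN6 library; the part of other cells in the ITGB2 level was not tested. ITGB8, a partner of ITGAV (7: 20330702 to 20415754, plus strand), had 18.5 to 50.4 CPM in HN30 and 1.66 to 12.3 CPM in HN6. On the log2 scale the difference was -2.31 ± 0.28 (edgeR adjusted p = 2.87e-05), again without overlap.

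On the HN6 side, ITGB3, the vitronectin receptor beta chain (17: 47253827 to 47313743, plus strand), had 8.08, 22.8 and 64.9 CPM as the lowest, median and highest value, against 0.328, 0.962 and 2.05 CPM in HN30. The difference on the log2 scale was 4.91 ± 0.62 (edgeR adjusted p = 3.85e-05). ITGA4, an alpha chain best known from leukocytes (2: 181457202 to 181538940, plus strand), was low but present in HN6, with 0.341 to 3.17 CPM from 10 to 105 counts. It had 0 counts in all 6 HN30 libraries, so its level was at least 101-fold higher in HN6 when 3 counts over the HN30 group are taken as the floor. The edgeR adjusted p of ITGA4 was 0.000168. ITGA4 passed the filter on low counts only through HN6, so this test is no separate support either. Exons of ITGA4 share 2813 bases with CERKL on the opposite strand, and the strand setting of the counting was not given in the sources used here.

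The abundant genes differed less. The collagen receptor chain ITGA2 was lower in HN6 with a log2 fold change of -1.81 ± 0.40 (edgeR adjusted p = 0.00217). LAMA5 and ITGB5 were also lower in HN6, by log2 fold changes of -1.04 and -1.02. LAMB1, LAMB2 and LAMC1 were lower in HN6 by log2 fold changes of -0.83, -0.79 and -0.46, and LAMB1 and LAMB2 were so without overlap of the 6 libraries. ITGA5 was higher in HN6 with a log2 fold change of 1.24 ± 0.29 (edgeR adjusted p = 0.0028). ITGA3 followed with 0.55 ± 0.13 (adjusted p = 0.00377) and LAMA1 with 1.05 ± 0.34 (adjusted p = 0.0202). LAMA3 at 0.83 (adjusted p = 0.0467) and ITGA1 at -0.92 (adjusted p = 0.0478) lay just under the threshold. The LAMA3 call was lost with repeat as a block (edgeR adjusted p = 0.0534) and on leaving out any 1 of 10 libraries, all but HN6 NC repeat 2 and HN30 NC repeat 1. The adjusted p of LAMA3 was then 0.0523 or more, at 0.116 without HN30 siFAT1-2 repeat 1 and higher still without HN6 NC repeat 1, where its log2 fold change was 0.69. The ITGA1 call was lost on leaving out any 1 of 10, all but the HN6 NC repeats, with adjusted p up to 0.115. LAMA1 lost its call without HN30 siFAT1-1 repeat 1 (adjusted p = 0.0546) or repeat 2 (0.0536). ITGB1, LAMB3 and ITGA6 had log2 fold changes of 0.00, 0.01 and 0.00 between the lines. In the 4 NC libraries alone 9 of the 28 passed, against 31.3% of all genes: ITGA4, ITGA5, ITGB2, ITGB3, ITGB8, LAMA4, LAMA5, LAMB1 and LAMB2. The other 7 kept their sign and did not pass there, with edgeR adjusted p of 0.0843 for ITGA2, 0.236 for ITGA3, 0.0673 for ITGB5, 0.311 for LAMC1, 0.461 for LAMA1, 0.544 for LAMA3 and 0.583 for ITGA1.

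Over both siRNAs and both lines, FAT1 knockdown (KD) left no integrin or laminin gene past the test. With edgeR 0 of 28 passed an adjusted p of 0.05 against 0.522% of all genes, and DESeq2 and limma-voom also gave 0. At an unadjusted p under 0.05 there were 5 of 28, against 2042 of all 14360 genes. With the added fold change limit there were 3, all higher after KD, which is 10.7% of the 28 against 3.20% of all genes. No gene had all KD libraries on one side of NC in both lines, against 5.29% of all genes. The median log2 fold change was 0.02 for the 28 and 0.02 for all genes.

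The 3 genes past the unadjusted thresholds were ITGA10, ITGA4 and LAMA4, each at low counts or in 1 line. ITGA10, a collagen receptor alpha chain known from cartilage (1: 145891208 to 145910111, minus strand), had 0.921 and 1.72 CPM in HN6 NC, 1.99 and 3.69 with siFAT1-1, and 1.38 and 2.89 with siFAT1-2. In HN30 it had 0.113 and 0.733 CPM with NC, 3.62 and 2.80 with siFAT1-1, and 0.779 and 1.63 with siFAT1-2. The siFAT1-1 libraries lay above NC in both lines, while siFAT1-2 overlapped NC in HN6. The log2 fold change of ITGA10 was 1.55 ± 0.57 (edgeR adjusted p = 0.246). ITGA4 had 1.93 ± 0.74 (adjusted p = 0.301), from HN6 alone, and LAMA4 1.16 ± 0.46 (adjusted p = 0.282), from HN30 alone. LAMA2, a laminin alpha chain of muscle, had 0.71 ± 0.29 (adjusted p = 0.293). Without HN6 NC repeat 1 there were 5 such genes and without HN6 NC repeat 2 there were 2.

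The targeted gene FAT1 did not pass the adjusted test within either line. Its log2 fold change was -2.15 ± 0.38 in HN6 (edgeR adjusted p = 0.205) and -0.94 ± 0.38 in HN30 (0.545). A lack of calls within a line therefore does not show that a gene was unchanged. Within HN6, 0 of 28 passed against 0% of all genes, with DESeq2 and limma-voom also at 0. At an unadjusted p under 0.05 there was 1 gene, against 1095 of all genes. With the fold change limit there was 1 gene, ITGA4, against 3.34% of all genes. ITGA4 had a log2 fold change of 2.00 ± 0.78 (edgeR adjusted p = 0.615), and ITGB8 followed with 1.14 and ITGA9 with 1.36, while ITGB2, the other gene among the 4 smallest p-values, was lower after KD and did not pass (adjusted p = 0.725). Within HN30, 0 of 28 passed against 0.0139% of all genes, by DESeq2 and limma-voom as well, with 2 genes at an unadjusted p under 0.05, against 1201 of all genes. The same 2, ITGA10 and LAMA4, passed with the fold change limit, against 4.36% of all genes. Their log2 fold changes were 2.36 ± 0.82 and 1.13 ± 0.51 (edgeR adjusted p = 0.487 and 0.595), while ITGB3 had 1.85 and LAMA2 0.86. For the difference between the lines in the effect of KD, 0 of 28 passed the adjusted test against 0% of all genes, by DESeq2 and limma-voom as well. None reached an unadjusted p under 0.05 either, against 317 of all genes, and 0 passed the fold change limit against 1.87% of all genes. The smallest p-values there belonged to ITGA6, LAMB4, ITGA5 and ITGA10, with log2 differences of 0.74, -1.33, -1.03 and -1.45. The HN6 counts rested on 1 control library: without HN6 NC repeat 1 the genes past the unadjusted thresholds rose from 1 to 6 within HN6 and from 0 to 5 for the difference between the lines. The HN6 count was 2 without HN6 siFAT1-1 repeat 1 and 0 without HN6 siFAT1-1 repeat 2 or HN6 siFAT1-2 repeat 2, and the difference between the lines had 1 without HN6 siFAT1-2 repeat 1, HN6 NC repeat 2 or HN30 NC repeat 2. In HN30 they fell from 2 to 0 without HN30 NC repeat 1 and to 1 without HN6 siFAT1-1 repeat 2 or HN30 siFAT1-2 repeat 2.

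The siRNAs on their own gave different results for these genes, and their comparisons with NC share the same 4 NC libraries. With siFAT1-1, 1 of 28 passed edgeR's adjusted test against 3.15% of all genes, and that gene, ITGB1, was lower. At the unadjusted thresholds there were 2, ITGB1 and ITGA10, against 5.77% of all genes. With siFAT1-2, 7 of 28 passed against 11.3% of all genes, 5 lower (ITGA3, ITGB2, ITGB4, ITGB5 and LAMA5) and 2 higher (ITGB8 and LAMA4). At the unadjusted thresholds there were 7, or 25% of the 28 against 9.16% of all genes. The 7 adjusted calls became 4 without HN6 siFAT1-1 repeat 1, 3 without HN6 siFAT1-2 repeat 1, and 2 without HN30 NC repeat 1 or HN30 siFAT1-2 repeat 1, and the 7 unadjusted ones became 4 without HN30 NC repeat 1. In both lines the libraries of an siRNA lay wholly on the same side of NC for 5 genes with siFAT1-1, against 20.5% of all genes, and for 6 genes with siFAT1-2, against 22.0% of all genes.

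**Figure D2:**
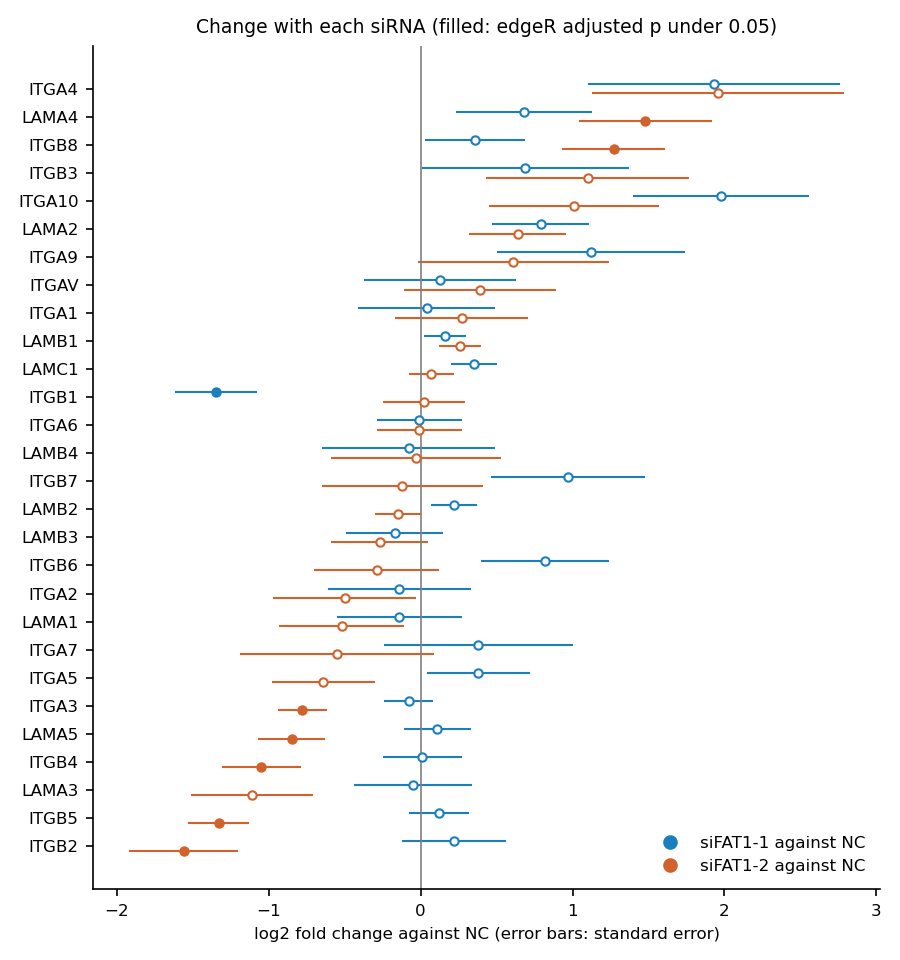
Log2 fold change against NC (x axis) with siFAT1-1 and siFAT1-2 for the 28 tested integrin and laminin genes (y axis), with standard errors from edgeR over 12 libraries; filled points passed an adjusted p of 0.05. ITGB1 is the 1 filled point for siFAT1-1, and 7 genes are filled for siFAT1-2.

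ITGB1 (10: 32887273 to 33005792, minus strand), the beta chain through which most collagen, fibronectin and laminin receptors work, had 1110 and 875 CPM in the HN30 NC libraries, 385 and 344 with siFAT1-1, and 802 and 856 with siFAT1-2. In HN6 it had 1263 and 407 CPM with NC, 348 and 355 with siFAT1-1, and 1102 and 949 with siFAT1-2. All 4 siFAT1-1 libraries lay below all 4 NC libraries and all 4 siFAT1-2 libraries, and the lowest NC value was that of HN6 NC repeat 2. The log2 fold change with siFAT1-1 was -1.35 ± 0.27 (edgeR adjusted p = 0.0212), a fold of 2.55. With siFAT1-2 it was 0.02 ± 0.27 (adjusted p = 0.968). The siRNAs differed from each other by -1.37 ± 0.27 (adjusted p = 0.00714).

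The share of ITGB1 in the measured beta chains also differed between the siRNAs. Per kb of transcript it was 24.8% and 28.3% in the HN6 siFAT1-1 libraries and 24.5% and 23.4% in those of HN30. It was 60.4% and 31.2% with NC in HN6 and 50.7% and 47.4% in HN30, and 57.7% to 75.1% over the 4 siFAT1-2 libraries, where the ITGB1 level itself did not pass the test and ITGB4 and ITGB5 were lower. The alpha chains that pair with ITGB1 did not pass the test with siFAT1-1. Among them ITGA2, ITGA3, ITGA5 and ITGA6 had log2 fold changes of -0.14, -0.08, 0.38 and -0.01 over both lines. Each of these chains had its siFAT1-1 mean above NC in one line and below it in the other. ITGA5 was at 86.3% of its NC mean in HN6 and at 199% in HN30. The call of ITGB1 against NC was lost without HN6 NC repeat 1 (edgeR adjusted p = 0.0602), HN6 siFAT1-1 repeat 1 (0.062) or repeat 2 (0.058), HN30 NC repeat 1 (0.0774), or HN30 siFAT1-1 repeat 1 (0.0775) or repeat 2 (0.0885). Without HN6 NC repeat 2 it was 0.000645, and the difference between the siRNAs passed without any 1 of the 12 libraries.

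The remaining genes with the smallest p under siFAT1-1 were higher and did not pass. ITGA10 had a log2 fold change of 1.98 ± 0.58 (edgeR adjusted p = 0.0881), LAMA2 0.79 ± 0.32 (adjusted p = 0.212) and LAMC1 0.35 ± 0.15 (adjusted p = 0.22). ITGA10 was past the threshold with DESeq2, at an adjusted p of 0.00565. With repeat as a block 4 genes, not 2, passed the unadjusted thresholds for siFAT1-1, as they did without HN6 NC repeat 1 or HN6 siFAT1-1 repeat 1.

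**Figure D3:**
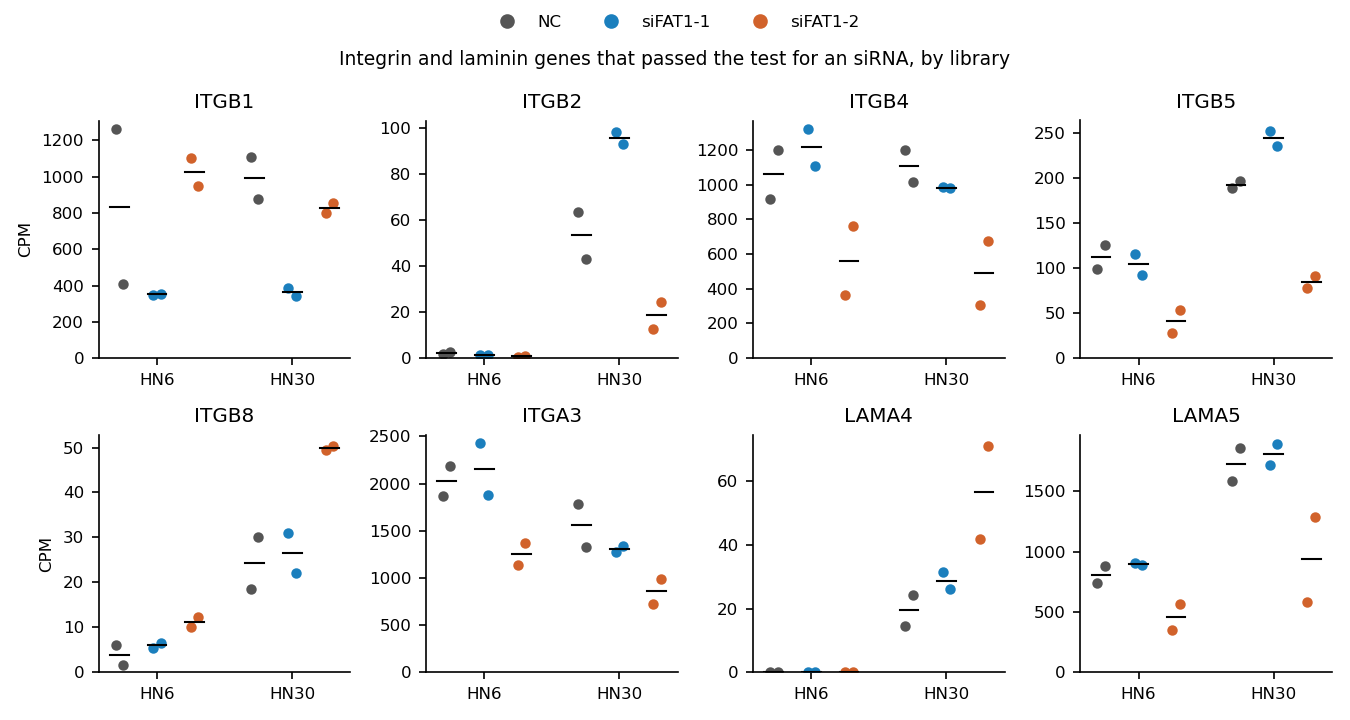
CPM (y axis, from 0) of the 8 integrin and laminin genes that passed the test for an siRNA, by line and siRNA; points are the 2 repeats of a condition and bars their mean. ITGB1 is low in the siFAT1-1 libraries of both lines, ITGB4, ITGB5, ITGA3 and LAMA5 are low in the siFAT1-2 libraries, and LAMA4 is near 0 in HN6.

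With siFAT1-2 the beta chains ITGB5, ITGB2 and ITGB4 fell. ITGB5, a vitronectin receptor chain that pairs with ITGAV (3: 124761948 to 124901418, minus strand), had 98.6 and 126 CPM in HN6 NC, 116 and 92.7 with siFAT1-1, and 27.8 and 53.8 with siFAT1-2. In HN30 it had 189 and 197 CPM with NC, 253 and 236 with siFAT1-1, and 78 and 91.7 with siFAT1-2. The siFAT1-2 libraries were the lowest in each line. The log2 fold change was -1.33 ± 0.20 (edgeR adjusted p = 0.00359), against 0.12 ± 0.20 with siFAT1-1 (adjusted p = 0.798). The call held without any 1 of the 12 libraries.

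ITGB2 had 63.4 and 43.1 CPM in HN30 NC, 98.2 and 93 with siFAT1-1, and 12.7 and 24.5 with siFAT1-2. In HN6 it was near the detection limit, with 1.64 and 2.57 CPM for NC, 1.43 and 1.30 for siFAT1-1, and 0.581 and 0.874 for siFAT1-2. The siFAT1-2 libraries lay below NC and siFAT1-1 in both lines. The log2 fold change with siFAT1-2 was -1.56 ± 0.36 (edgeR adjusted p = 0.0183), and the call was lost without HN30 NC repeat 1 (0.0526) or HN30 siFAT1-2 repeat 1 (0.0542).

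ITGB4 (17: 75721328 to 75757818, plus strand) had 919 and 1201 CPM in HN6 NC, 1319 and 1109 with siFAT1-1, and 365 and 760 with siFAT1-2. In HN30 it had 1197 and 1016 CPM with NC, 987 and 978 with siFAT1-1, and 308 and 675 with siFAT1-2. The siFAT1-2 libraries were again the lowest in each line, with a wide gap between their repeats. The log2 fold change was -1.05 ± 0.26 (edgeR adjusted p = 0.0257). Its hemidesmosomal partner ITGA6 had -0.01 ± 0.28 with siFAT1-2 over both lines, which went opposite ways. The ITGA6 mean was at 71.2% of NC in HN30. In HN6 it was at 138%, where the NC repeats had 779 and 310 CPM. The ITGB4 call was lost without HN6 siFAT1-2 repeat 1 (adjusted p = 0.0632), HN30 NC repeat 1 (0.0784) or HN30 siFAT1-2 repeat 1 (0.0622).

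Among the alpha and laminin chains, ITGA3 and LAMA5 fell with siFAT1-2. ITGA3 (17: 50055968 to 50090481, plus strand), the alpha chain of a laminin receptor, had 1873 and 2181 CPM in HN6 NC and 1132 and 1367 with siFAT1-2, and 1780 and 1332 CPM in HN30 NC and 725 and 989 with siFAT1-2. Its 4 siFAT1-1 libraries had 2431 and 1878 CPM in HN6 and 1276 and 1343 in HN30. The siFAT1-2 libraries did not overlap the others of their line, and the log2 fold change was -0.78 ± 0.16 (edgeR adjusted p = 0.0128). LAMA5 (20: 62307955 to 62367312, minus strand) had 741 and 879 CPM in HN6 NC and 353 and 564 with siFAT1-2, and 1588 and 1856 CPM in HN30 NC and 580 and 1290 with siFAT1-2. With siFAT1-1, whose seed letters LAMA5 holds in its coding sequence, it had 908 and 892 CPM in HN6 and 1719 and 1890 in HN30. LAMA5 changed by -0.85 ± 0.22 on the log2 scale with siFAT1-2 (edgeR adjusted p = 0.0316) and by 0.11 ± 0.22 with siFAT1-1 (adjusted p = 0.829). Its siFAT1-2 call was lost on leaving out any 1 of 7 libraries, with adjusted p up to 0.0851: HN6 siFAT1-1 repeat 1, HN6 siFAT1-2 repeat 1, HN6 NC repeat 2, both HN30 NC repeats, HN30 siFAT1-2 repeat 1 and HN30 siFAT1-1 repeat 2. LAMA3 had -1.11 ± 0.40 and did not pass (adjusted p = 0.0931), and passed without HN6 NC repeat 2 (0.0299).

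ITGB8 and LAMA4 rose with siFAT1-2. ITGB8 had 6.17 and 1.66 CPM in HN6 NC, 5.36 and 6.65 with siFAT1-1, and 10.2 and 12.3 with siFAT1-2. In HN30 it had 18.5 and 30.2 CPM with NC, 31.1 and 22.1 with siFAT1-1, and 49.4 and 50.4 with siFAT1-2. The siFAT1-2 libraries were the highest in each line, and the log2 fold change was 1.27 ± 0.34 (edgeR adjusted p = 0.0328). LAMA4, measurable in HN30 only, had 14.6 and 24.2 CPM with NC, 31.5 and 26 with siFAT1-1, and 41.9 and 70.9 with siFAT1-2. Its log2 fold change was 1.48 ± 0.44 (edgeR adjusted p = 0.0493), at the edge of the threshold, and 0.0593 with repeat as a block. The ITGB8 call was lost on leaving out any 1 of 7 libraries, with adjusted p up to 0.0953 without HN30 NC repeat 1; the other 6 were HN6 siFAT1-1 repeat 1, HN30 siFAT1-1 repeat 1 and the 4 siFAT1-2 libraries. The LAMA4 call remained only without HN6 NC repeat 2 or HN6 siFAT1-2 repeat 2, with adjusted p up to 0.223 otherwise.

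ITGA4 passed the unadjusted thresholds with siFAT1-2, at a log2 fold change of 1.96 ± 0.83 (edgeR adjusted p = 0.173), from HN6 alone. Among the chains that did not pass with siFAT1-2 were ITGB1, ITGA6, ITGAV, LAMB1, LAMB2, LAMB3 and LAMC1, with log2 fold changes of 0.02, -0.01, 0.39, 0.26, -0.15, -0.27 and 0.07.

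Tested directly, the siRNAs differed for 6 of 28 genes with edgeR at an adjusted p under 0.05, against 16.8% of all genes. ITGA3, ITGB2, ITGB4, ITGB5 and LAMA5 were higher with siFAT1-1 than with siFAT1-2, and ITGB1 was lower. At the unadjusted thresholds there were 7, against 12.6% of all genes, and the libraries of the siRNAs did not overlap in either line for 10 genes, against 33.4% of all genes. In the same comparison 4 of 7 epithelial markers and both tested endothelial markers were higher with siFAT1-1, against 1381 of all 14360 genes. Their median log2 differences were 0.85 and 2.82, the endothelial ones summing to at most 7.86 CPM. Of 4 tested fibroblast markers 1 was higher and 1 lower, with a median of -1.21. Of 2 tested leukocyte markers 1 was higher. The part of these markers in the differences was not tested. The largest differences in log2 fold change were 1.78 ± 0.36 for ITGB2 (adjusted p = 0.00742) and 1.44 ± 0.20 for ITGB5 (adjusted p = 0.00148). ITGB4 followed with 1.06 ± 0.26 (adjusted p = 0.0184), LAMA5 with 0.96 ± 0.22 (0.0143) and ITGA3 with 0.70 ± 0.16 (0.014). ITGA5, ITGB6 and LAMA3 had 1.02, 1.11 and 1.06 and did not pass, at adjusted p = 0.0595, 0.0871 and 0.0872. With repeat as a block ITGA5 passed (adjusted p = 0.0155). The calls of ITGB1, ITGB2 and ITGB5 held without any 1 library. ITGA3 (0.055) and ITGB4 (0.0603) lost theirs without HN6 siFAT1-1 repeat 1, and LAMA5 (0.0503) without HN30 siFAT1-1 repeat 2. The genes past the unadjusted thresholds fell from 7 to 4 without HN30 siFAT1-1 repeat 1 and to 3 without HN30 siFAT1-2 repeat 1.

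GC content moved with part of this pattern. Genes of 35% to 40% GC lay above their mean over the 12 libraries by 0.25 to 0.38 on the log2 scale in the 4 siFAT1-2 libraries, and genes of 60% to 65% GC lay below it by 0.12 to 0.32. HN30 NC repeat 2 lay above by 0.40 in the first of these bins, the highest of the 12 libraries, and below by 0.03 in the second. HN30 NC repeat 1 lay above by 0.09 in the first bin, and both HN30 siFAT1-1 libraries by 0.18. In the second bin these lay above by 0.07 to 0.11. HN6 NC repeat 2, at -1.16 in the first bin, lowers the mean there. The genes lower with siFAT1-2 had transcripts of high GC content, with 66.4% for LAMA5, 63.6% for ITGB4, 60.9% for ITGA3, 59.5% for ITGB2 and 54.6% for ITGB5, while ITGB8 had 38.7%. With the trend removed from each library, a step added after the data were seen, 4 of the 7 siFAT1-2 calls remained by edgeR: ITGB2 (log2 fold change -1.28, adjusted p = 0.04), ITGB5 (-1.09, 0.00669), ITGB8 (0.93, 0.024) and LAMA4 (1.48, 0.0416). ITGA3 (-0.50, 0.0664), ITGB4 (-0.75, 0.108) and LAMA5 (-0.57, 0.18) kept their sign and did not pass. ITGB1, at 39.5% GC, had -1.36 with siFAT1-1 (adjusted p = 0.00228) and a difference between the siRNAs of -1.05 (adjusted p = 0.00411). Between the siRNAs ITGB2 and ITGB5 also remained and ITGB6, at 1.39 (adjusted p = 0.0165), was added.

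**Figure D4:**
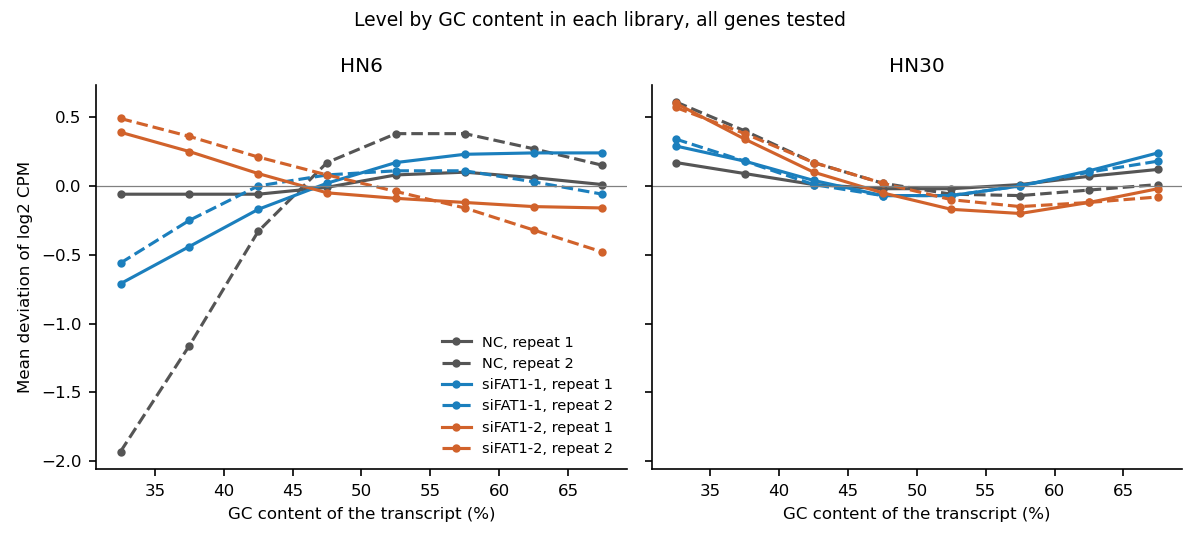
Mean deviation of log2 CPM from each gene's mean over the 12 libraries (y axis) for all tested genes in bins of transcript GC content (x axis, %), 1 line per library, HN6 left and HN30 right. HN6 NC repeat 2 drops to -1.93 in the lowest bin and lowers the mean there. All HN30 libraries and the HN6 siFAT1-2 libraries are raised at low GC content. The siFAT1-2 libraries of both lines are lowered at high GC content.

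Genes that work with integrins were counted in the same fits, where 34 of all 14360 genes were lower and 41 higher after KD (edgeR). Of 27 genes of integrin activation and the focal adhesion plaque, 1 was lower and 0 higher after KD (edgeR). That gene was PXN, paxillin, an adaptor at the cytoplasmic face of focal adhesions, with mean CPM of 863 in HN6 NC, 500 with siFAT1-1 and 445 with siFAT1-2, and of 680, 402 and 421 in HN30. Its log2 fold change was -0.80 ± 0.13 (adjusted p = 0.0176), and each siRNA gave a like value, -0.77 and -0.82. With siFAT1-2 alone 8 of the 27 were lower and 0 higher, against 1022 lower and 596 higher of all 14360 genes. With siFAT1-1 alone 1 was lower and 1 higher, against 290 and 162 of all genes. Between the siRNAs 11 of the 27 were higher with siFAT1-1 and 0 lower, against 1381 higher and 1025 lower of all genes.

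Of 18 tested basement membrane genes and other integrin ligands, 1 was higher after KD and 0 lower, against 41 and 34 of all genes. That gene was NTN4, a netrin that binds laminin, with mean CPM of 29.4 in HN6 NC, 78.6 with siFAT1-1 and 89.4 with siFAT1-2, and of 12.1, 35.6 and 19.4 in HN30. Its log2 fold change was 1.35 ± 0.22 (edgeR adjusted p = 0.0176). CYR61, a secreted matricellular ligand of integrins, passed the unadjusted thresholds with 1.10 ± 0.35 (adjusted p = 0.185). SDC4, a heparan sulfate co-receptor of focal adhesions among 8 tested non-integrin matrix receptors, had 1.07 ± 0.24 (adjusted p = 0.0673) and passed with siFAT1-1 at 1.37 ± 0.18 (0.00306) and with siFAT1-2 at 0.70 ± 0.18 (0.0272). None of 6 integrin inhibitors, 6 hemidesmosome and basal adhesion partners and 5 tested alpha chains of blood cells and platelets passed after KD. At an unadjusted p under 0.05 these groups had 0, 2 and 1 genes, against 2042 of all 14360 genes. The gene of the last group was ITGAM, at -1.56 ± 0.67 (adjusted p = 0.316).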

How the data were processed

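Per the labels and the study's methods, poly(A) RNA was sequenced as 150 bp paired reads, and the deposited table holds raw read counts per gene that the authors made from them; the submitters' processing notes name HISAT2, featureCounts and hg38 without versions. Annotation and strand setting were not given in the sources used here; exons of 20 of the 31 genes overlap another annotated gene, 17 of them on the opposite strand, and such reads cannot be told apart. The genes and lists were chosen with earlier results of these data known. Genes were kept by filterByExpr (minimum count 10) and tested with edgeR 4.0.16 (quasi-likelihood test, TMM) on all 12 libraries, with line and siRNA (or KD, and line by KD) as terms, in R 4.3.3. A call is a Benjamini-Hochberg adjusted p under 0.05; the unadjusted thresholds are a P below 0.05 with a log2 fold change beyond 1 in size. Test values are given for every gene that passed and, where fewer than 4 did, for the 4 smallest p; genes of other lists are named where they passed either threshold for KD. The fits were tested on simulated data. Alternatives were DESeq2 1.42.0, limma-voom (limma 3.58.1), DESeq2 size factors, no filter, repeat as a block, leaving out each library, the NC libraries alone, no term for line and, added after seeing the data, a correction for GC content. Repeat numbers mark separate times, so the block applies; correlations of same-numbered deviations were 0.08, 0.216 and 0.221 in HN6 and -0.0312, 0.393 and -0.0252 in HN30. Gene models are from GENCODE 44, and all 31 symbols matched. Counting intervals cover counting error only. A gene of the leukocyte marker list is not reported here.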

Additional observations from a re-analysis of the deposited data

Results flagged for a closer look

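For 6 of the 28 tested genes the effects of siFAT1-1 and siFAT1-2 differed by a direct test between the siRNAs in edgeR. The threshold was an adjusted p under 0.05, which 16.8% of all genes passed. The log2 differences of siFAT1-1 over siFAT1-2 were -1.37 for ITGB1, 1.78 for ITGB2, 1.44 for ITGB5, 1.06 for ITGB4, 0.96 for LAMA5 and 0.70 for ITGA3. All 6 had libraries that did not overlap between the siRNAs in either line, as did 33.4% of all genes. The 6 were picked by a test on the same libraries, so this is no separate support. Mean FAT1 with siFAT1-1 and siFAT1-2 was 10.6 and 17.3 CPM in HN6 and 5.55 and 9.27 CPM in HN30. FAT1 itself did not pass the direct test between the siRNAs (log2 difference -0.73 ± 0.31, edgeR adjusted p = 0.118). The part of the FAT1 level in these differences was not tested. With the trend with GC content removed, ITGB1 (-1.05, edgeR adjusted p = 0.00411), ITGB2 (1.53, 0.0115) and ITGB5 (1.26, 0.00153) passed, while ITGA3 (0.41, 0.0955), ITGB4 (0.72, 0.093) and LAMA5 (0.60) kept their sign and did not pass.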

How the results depend on the processing

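No gene changed its direction under any alternative among those named. Of the values for named genes, 952 stayed on their side of the threshold, 85 lost and 17 gained a call. Counts of adjusted calls moved by over 1.5 times with DESeq2, to 2 for siFAT1-1 and 10 between the siRNAs; with the NC libraries alone, to 9 between the lines; and with the GC correction, to 4 for siFAT1-2. Counts at the unadjusted thresholds moved to 2 within HN6 with DESeq2, to 4 for siFAT1-1 with limma-voom, to 1 for KD without a term for line, and with the GC correction to 4 for siFAT1-2, 4 between the siRNAs and 0 within HN6. With repeat as a block they moved to 4 for siFAT1-1 and 1 for the difference between the lines. The block together with the GC correction gave 2 adjusted calls and 4 unadjusted ones for siFAT1-1, 4 adjusted calls for siFAT1-2, and 4 unadjusted ones between the siRNAs and 0 within HN6. The block changed 3 calls, those of LAMA3 between the lines, LAMA4 with siFAT1-2 and ITGA5 between the siRNAs, and no other call of a named gene.

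Leaving out 1 library gave 0 to 1 adjusted calls for siFAT1-1, 2 to 7 for siFAT1-2 and 0 to 1 within HN6, where the 1 gene was ITGAV, without HN6 NC repeat 1. At the unadjusted thresholds it gave 2 to 5 genes for KD, 2 to 4 for siFAT1-1, 4 to 7 for siFAT1-2, 3 to 8 between the siRNAs, 0 to 6 within HN6, 0 to 3 within HN30 and 0 to 5 for the difference between the lines. Without HN6 NC repeat 2 the adjusted calls were 17 between the lines, 1 for siFAT1-1, 7 for siFAT1-2 and 9 between the siRNAs. A condition left with 1 library is assumed to vary like the others. The causes were not tested. With 2 repeats a condition, changes of the low genes ITGA4, ITGA7, ITGA9, ITGA10, ITGB7 and LAMB4 were measured imprecisely.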
